A study of Sus scrofa with 6 samples.

Results

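A set of 3 genes of the renin-angiotensin system, AGT, AGTR1 and ACE, was followed in left atria of pigs with mitral regurgitation, with and without the angiotensin receptor blocker valsartan. They were chosen as all probe sets whose only gene symbol in the array annotation is AGT, AGTR1 or ACE, which gave 3 probe sets, 1 per gene, of 24123 on the array, and 3 genes of 6765 that the annotation names singly. RNA came from 6 male Lanyu miniature pigs aged 18 months, with 1 array per animal and 2 animals per group. MRV animals had regurgitation through a 2.8 mm hole made in the posterior mitral leaflet and were given valsartan, 3.43 mg/kg/day, starting 1 week ahead of the operation. MR animals had the same lesion without valsartan, and both lesioned groups were killed 12 months after surgery. NC animals were normal controls of the same age, and no surgery is recorded for them, so the effects of the lesion and of the operation cannot be told apart. The treatment is a drug at the protein level: it blocks the type 1 angiotensin II receptor, and no gene was altered in any animal.

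AGT encodes angiotensinogen, the precursor from which angiotensin I is cut. Angiotensin converting enzyme, the product of ACE, trims that peptide to angiotensin II, and AGTR1 encodes the type 1 receptor through which angiotensin II raises vascular tone, aldosterone release and tissue remodelling. The liver supplies most circulating angiotensinogen, but heart tissue also holds transcripts of the system, which makes a local supply of the peptide possible. ACE is typical of endothelium, and AGTR1 of smooth muscle, pericytes and fibroblasts. The array measured RNA only, so peptide levels, enzyme activity and receptor number were not measured.

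The deposited value is an intensity on a linear scale, and array medians lay between 90.1 and 93.1. The atrial marker genes NPPA and MYL4 read at least 18414.2 and 21033.9 on every array, as the tissue label states. Across tested probe sets, which are not independent, r was 0.9806 between the MRV arrays, 0.9804 between the MR arrays and 0.9581 between the NC arrays. NC animal 2 was closer to the 4 lesioned animals (0.9702 to 0.9834) than to NC animal 1, which correlated with the others at 0.9542 to 0.9747. The 3' over 5' actin control ratio, a measure of RNA degradation, was 2.30 and 1.87 in MRV, 1.44 and 1.70 in MR, and 1.61 and 1.91 in NC. The 28S ribosomal control read 341 and 558.8 in MRV, 187.4 and 279.9 in MR, and 117 and 468.4 in NC.

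No group difference of AGT, AGTR1 or ACE passed the limma threshold, an adjusted p of 0.05 over 14400 tested probe sets. AGTR1 showed lower values on both MRV and both MR arrays than on either NC array. AGT showed higher values on both MRV arrays than on either MR array, with a wide spread inside the groups. ACE values lay within a narrow range that all 3 groups shared. Since this is whole tissue, fewer cells that carry a transcript and less RNA per cell cannot be told apart for any of these genes.

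**Figure D1:**
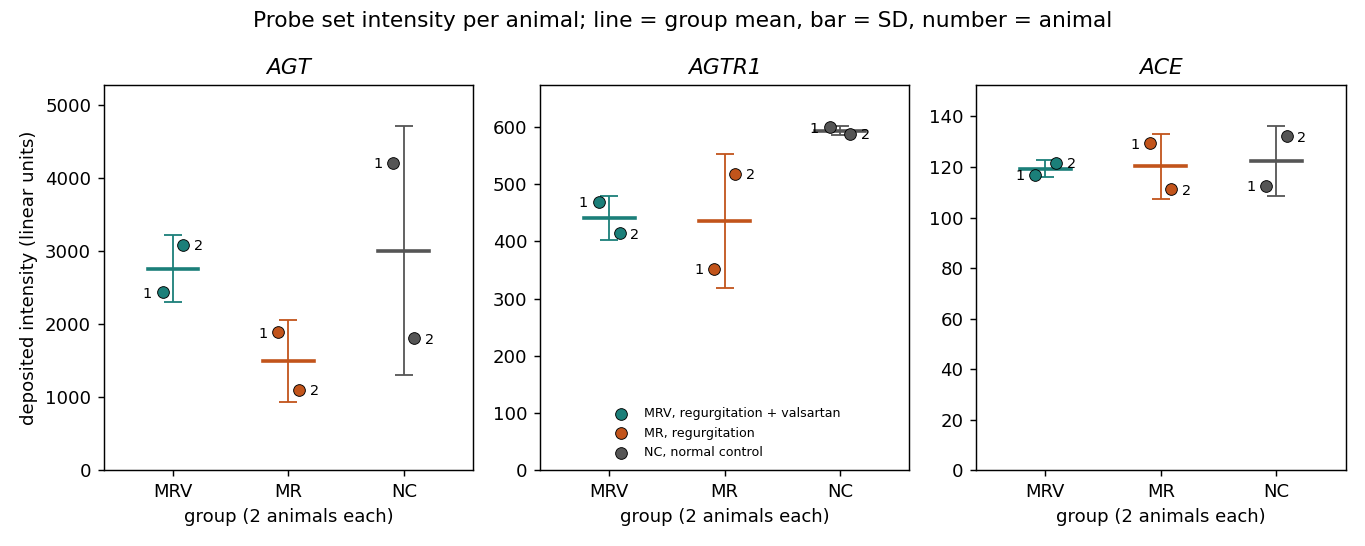
Deposited intensity (linear units, axis from 0) of AGT, AGTR1 and ACE in each animal, by group from left to right MRV, MR and NC; points are animals, numbered by replicate, lines are group means and bars are the SD of 2 animals. AGT spans 1096.8 to 4208.7 and its highest and lowest NC animals are far apart, the 4 lesioned animals lie below both NC animals for AGTR1, and ACE stays between 111.2 and 132.1.

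Angiotensinogen was the most variable of the 3. AGT read 2433.5 and 3085.4 in MRV, 1887.3 and 1096.8 in MR, and 4208.7 and 1803.3 in NC. NC animal 1 had the highest value of all and NC animal 2 the second lowest, so the NC group overlapped with both others, while the MRV and MR animals did not overlap. The highest animal exceeded the lowest by 3.84-fold, and inside the NC group alone the ratio was 2.33-fold. The group means were 2759 ± 461 in MRV, 1492 ± 559 in MR and 3006 ± 1701 in NC (SD, n = 2 each). In the order of the means, NC and MRV differed by less than the spread inside NC.

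Differences were fitted as log2(intensity + 16) in one limma model of all 6 arrays, with standard errors (SE) moderated across probe sets. AGT differed by 0.92 in MRV minus MR (SE 0.45, limma adjusted p = 0.727), with a 95% interval from -0.18 to 2.02. In MR minus NC the log2 difference was -0.93 (SE 0.45, limma adjusted p = 0.999955; interval -2.03 to 0.17), and in MRV minus NC it was -0.0084 (SE 0.45, limma adjusted p = 0.999; interval -1.11 to 1.09). The intervals therefore include no difference in all 3 comparisons, and also include differences of more than 2-fold. MRV minus MR and MR minus NC share the MR arrays, so their opposite signs are not independent.

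Single arrays set the size of the AGT differences. In MR minus NC the log2 difference was -0.32 without NC animal 1, -1.54 without NC animal 2 and -0.54 without MR animal 2. In MRV minus NC it was 0.60 without NC animal 1. In MRV minus MR it was 0.53 without MR animal 2. The RNA quality controls also moved with this comparison, since the actin ratio and the 28S control were higher on both MRV arrays than on both MR arrays. Fitted with the actin ratio as covariate, the log2 difference of AGT in MRV minus MR was 2.05 (limma adjusted p = 0.999856), and with the 28S control, which was chosen as a covariate after seeing the data, it was 1.43 (limma adjusted p = 0.385). Their part in the AGT difference was not tested beyond these fits.

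The receptor gene AGTR1 read 468.8 and 414.3 in MRV, 352.1 and 518.2 in MR, and 599 and 588.3 in NC. The NC animals were nearly alike and stood above all 4 lesioned animals, and the MRV values lay inside the span of the MR values. The means were 442 ± 38.5 in MRV, 435 ± 117 in MR and 594 ± 7.57 in NC (SD, n = 2 each), so MR stood at 73.3% and MRV at 74.4% of NC. The neighbouring means of MRV and MR differed by less than the spread inside MR.

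AGTR1 had a log2 difference of -0.46 in MR minus NC (SE 0.19, limma adjusted p = 0.999955; 95% interval -0.93 to 0.014). In MRV minus NC it was -0.42 (SE 0.19, limma adjusted p = 0.904; interval -0.89 to 0.057). These comparisons share the NC arrays and are not independent of each other. In MRV minus MR the log2 difference was 0.043 (SE 0.19, limma adjusted p = 0.970; interval -0.43 to 0.52). This interval spans a level in MRV from 0.742 to 1.43 times that in MR. The actin ratio and the 28S control were also higher on both MRV arrays than on both MR arrays. With the actin ratio as covariate AGTR1 differed by -0.29 in MRV minus MR, -0.32 in MR minus NC and -0.62 in MRV minus NC. With the 28S control, a covariate chosen after seeing the data, these were 0.0162, -0.46 and -0.44. The part of RNA quality in the AGTR1 differences was not tested beyond these fits. The log2 difference in MR minus NC was -0.19 without MR animal 1 and -0.73 without MR animal 2. Without NC animal 1 it was -0.45, and the log2 difference in MRV minus NC was -0.40.

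Converting enzyme transcripts showed the smallest range. ACE read 117 and 121.7 in MRV, 129.4 and 111.2 in MR, and 112.6 and 132.1 in NC. MR and NC each held 1 animal with a high and 1 with a low reading, and the MRV values lay inside the ranges of both. The means were 119 ± 3.32 in MRV, 120.3 ± 12.9 in MR and 122 ± 13.8 in NC (SD, n = 2 each), so no pair of neighbours differed beyond its spread.

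For ACE the log2 difference was -0.021 in MR minus NC (SE 0.13, limma adjusted p = 0.999955; 95% interval -0.34 to 0.29). It was -0.0071 in MRV minus MR (SE 0.13, limma adjusted p = 0.994; interval -0.32 to 0.31) and -0.028 in MRV minus NC (SE 0.13, limma adjusted p = 0.986; interval -0.34 to 0.29). The ACE intervals leave room for a level from 0.801 to 1.24 times that of MR in MRV. The ACE probe set had a mean of 121 over all arrays, above the array medians and the testing limit of 61.4.

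**Figure D2:**
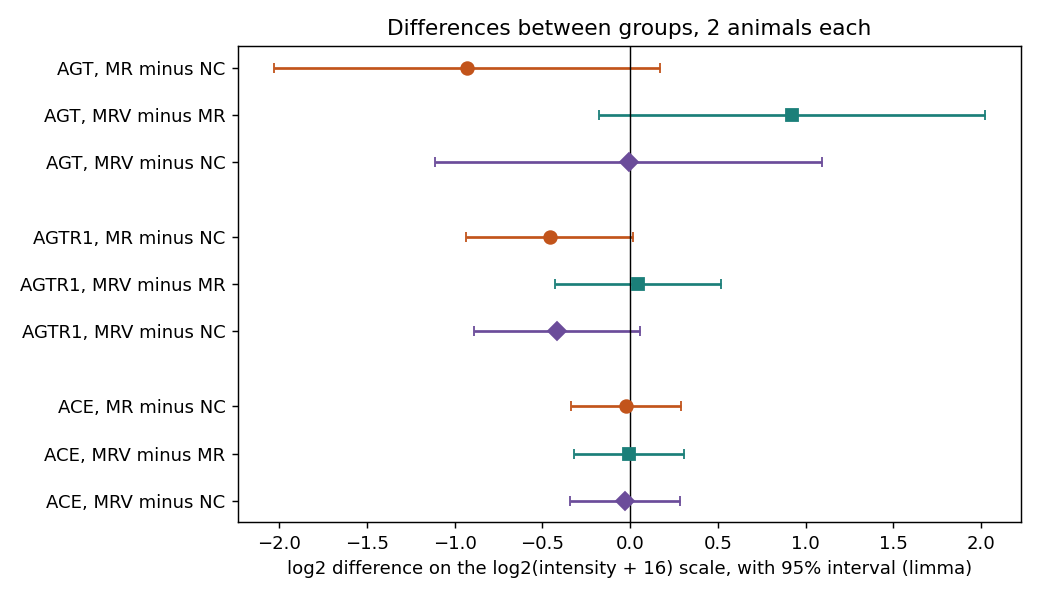
Log2 differences (horizontal axis, log2(intensity + 16) scale) of AGT, AGTR1 and ACE for the 3 comparisons of the groups; points are limma estimates and bars 95% intervals, with 2 animals per group. All 9 intervals cross 0, and the AGT intervals are the widest, reaching from -2.03 to 2.02.

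Set against the whole array, 0 of the 3 genes were called in MR minus NC, where 0.00694% of tested probe sets were (1 of 14400, the asparagine synthetase gene ASNS). In MRV minus MR and in MRV minus NC, 0 of the 3 were called and the share over all probe sets was 0% in each; at an unadjusted limma p under 0.05 these shares were 4.02% in MR minus NC, 7.28% in MRV minus MR and 5.29% in MRV minus NC, with 0 of the 3 genes in each. Arrays of the groups did not overlap for 1 of 3 genes in each comparison. In MR minus NC this was AGTR1, on the lower side, where 12.5% of all tested probe sets lay. In MRV minus MR it was AGT, on the higher side, with 18.8% of all tested probe sets. In MRV minus NC it was again AGTR1, on the lower side, with 18.1%. With 2 against 2 animals an exact permutation test of a single gene cannot give a two-sided p below 0.333.

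The spread between animals of a group differed among the 3 genes. The pooled SD within groups on the log2 scale was 0.60 for AGT, larger than in 97.4% of the tested probe sets. It was 0.23 for AGTR1, larger than in 78.6%, and 0.12 for ACE, larger than in 38.9%. The median over all tested probe sets was 0.14. A difference of a given size was therefore least detectable for AGT.

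**Figure D3:**
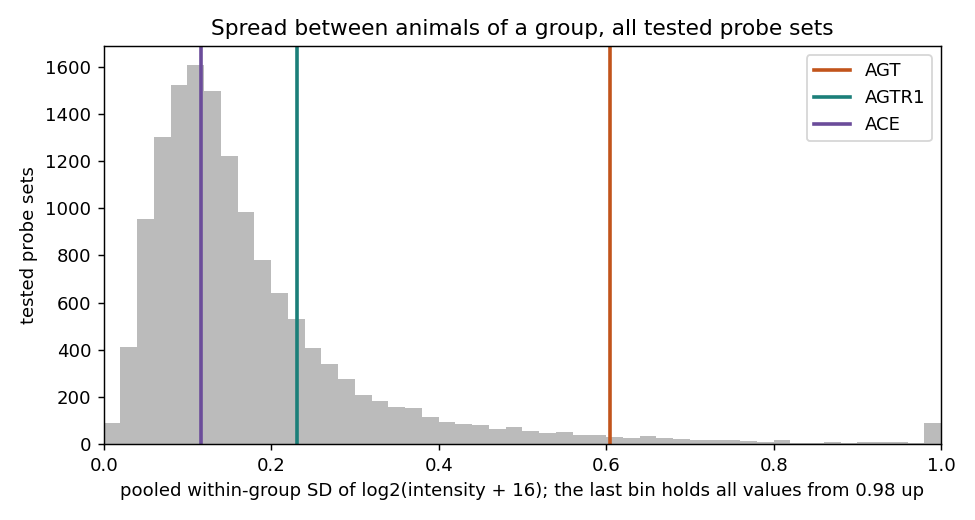
Number of tested probe sets (vertical axis) by pooled SD within groups on the log2(intensity + 16) scale (horizontal axis); vertical lines mark AGT, AGTR1 and ACE. ACE at 0.12 and AGTR1 at 0.23 lie in the main body of the distribution around the median of 0.14, and AGT at 0.60 lies in its upper tail.

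Of the other genes of the axis, AGTR2, MAS1, LNPEP, CMA1 and NR3C2 had no probe set named singly by the annotation and were not analysed here. AGTRAP, whose protein binds the type 1 receptor and promotes its internalization, read 129 and 118.9 in MRV, 113.7 and 117.5 in MR, and 117.8 and 118.9 in NC. ATP6AP2, an accessory subunit of the vacuolar proton pump, read 580.2 and 586.3 in MRV, 607.4 and 707.7 in MR, and 635.2 and 562.3 in NC. Log2 differences of AGTRAP were -0.030 in MR minus NC and 0.088 in MRV minus MR, and those of ATP6AP2 were 0.13 and -0.16 in the same comparisons. HSD11B2, which inactivates cortisol and so keeps the mineralocorticoid receptor free for aldosterone, read between 50.1 and 69.3 and lay below the testing limit.

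Beyond these, 111 genes in 6 lists describe the wider pathway, of which 70 had a probe set named singly and 54 were bright enough to be tested. None passed the limma threshold in any comparison, the smallest adjusted p being 0.640 in MR minus NC, 0.317 in MRV minus MR and 0.814 in MRV minus NC. At an unadjusted p under 0.05 there were 6 genes in MR minus NC (11.1% of the 54, against 4.02% of all tested probe sets), 5 in MRV minus MR (9.26% against 7.28%) and 6 in MRV minus NC (11.1% against 5.29%). Of these, the list of genes induced through the type 1 receptor held 3 higher and 2 lower in MR minus NC. It held 4 lower in MRV minus MR and 4 lower in MRV minus NC. The lists were chosen with earlier results of these data known, so these shares are descriptions only. The backgrounds here and below are also unlike the lists. Each of the 54 genes stands by its brightest probe set, whereas only 7141 of the 14400 tested probe sets have a single symbol. Shares over the brightest probe set of every tested gene were not computed. Groups did not overlap for 17 genes (31.5%) in MR minus NC, where 26.8% of all tested probe sets showed no overlap in either direction. The matching counts were 25 genes (46.3%) against 42.4% in MRV minus MR, and 19 genes (35.2%) against 33.2% in MRV minus NC. Genes named from the lists below were mostly picked by smallest p, so groups that stand apart in them are to be read against these shares.

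The list of angiotensin peptide formation and breakdown, which holds ATP6AP2 beside the enzymes, had a median log2 difference of 0.10 in MR minus NC, with 7 of 9 genes higher. In MRV minus MR its median was -0.16, which is the value of ATP6AP2 itself, with 6 of 9 lower. The 7 higher genes included PRCP at only 5.6e-05 and NLN, whose bright probe sets may not report neurolysin. Over all 5408 tested genes the medians were 0.0076 and -0.031. Of these genes, 52.6% were higher and 47.4% lower in MR minus NC, and 42.4% were higher and 57.6% lower in MRV minus MR. Direction counts of this list and of those below are to be read against these shares. With single arrays left out, the first median of the list ran from -0.00064 (without NC animal 2) to 0.15, and the second from -0.17 to -0.057 (without MR animal 2). Fitted with the actin ratio as covariate, the second median was -0.028. The median over all genes was not computed with this covariate. CTSD, cathepsin D, a lysosomal aspartic protease able to cleave angiotensinogen, read 490.4 and 625.6 in MRV, 689.6 and 745.9 in MR, and 533.1 and 675.3 in NC. The lysosomal protease gene CTSB read 3107.3 and 3391.4 in MRV, 4253 and 3649.4 in MR, and 3637.8 and 3251 in NC. Both cathepsins thus read lower on both MRV arrays than on either MR array, with log2 differences of -0.36 for CTSD and -0.28 for CTSB (limma adjusted p = 0.724 and 0.715).

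CTSB and CTSD thus belonged to the 23.6% of tested probe sets that lay lower in MRV than in MR without overlap. PREP, a prolyl endopeptidase that can convert angiotensin peptides, read 677.2 and 620.8 in MRV, 660.6 and 680.9 in MR, and 783.2 and 746.8 in NC, with both NC animals above the other 4. Neurolysin (NLN), a metallopeptidase that cleaves angiotensin I, read 3846.1 and 3720.6 in MRV, 3704.3 and 3588.8 in MR, and 3146.5 and 3276.6 in NC at its brightest probe set. Probe sets of NLN disagreed: the other 2 that were tested had log2 differences of 0.12 and 0.25 in MR minus NC, but 0.10 and -0.18 in MRV minus MR, where the brightest had 0.053. Their levels fell far apart as well: 2 probe sets lay between 3145.4 and 3846.1, a further one between 181.5 and 236.8, and the others, 3 control probe sets included, between 24.4 and 83, so the bright values may not report neurolysin. ENPEP, aminopeptidase A, which removes the first residue of angiotensin II, was picked out after its values had been seen: it read 149.8 and 145.5 in MRV, 109.8 and 123.3 in MR, and 381 and 118.6 in NC. Its highest value came from NC animal 1, as did that of AGT.

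Only 3 genes of receptors and adaptors were tested. GRK5, a kinase that phosphorylates active G protein-coupled receptors and starts their desensitization, read 421.6 and 425.2 in MRV, 452 and 472.6 in MR, and 304.8 and 372.2 in NC. All 4 lesioned animals exceeded both NC animals, the reverse of the AGTR1 pattern (14.3% of tested probe sets were higher in MR than in NC without overlap), with a log2 difference of 0.44 in MR minus NC (SE 0.13, limma adjusted p = 0.999955, unadjusted p = 0.0142). The adaptor arrestin gene ARRB2 read 155.4 and 160.3 in MRV, 133.6 and 180.6 in MR, and 182.7 and 117.4 in NC, with overlap of all groups.

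Genes of signalling from the receptor had medians of -0.028 in MR minus NC (4 of 16 higher, 12 lower) and 0.0011 in MRV minus MR (8 higher, 8 lower). EGFR, the growth factor receptor that is transactivated downstream of angiotensin II, read 182.9 and 170.1 in MRV, 154.4 and 199.3 in MR, and 349.4 and 199.7 in NC, with its highest value again in NC animal 1. Its log2 differences were -0.55 in MR minus NC, 0.0064 in MRV minus MR and -0.55 in MRV minus NC, and those of its other probe set -0.34, 0.24 and -0.10. The stress kinase gene MAPK14 read 246 and 237.6 in MRV, 285.5 and 282.8 in MR, and 334.9 and 301 in NC, so that each group stood apart from the others. Of all tested probe sets, 12.5% were lower in MR than in NC without overlap, 23.6% in MRV than in MR and 18.1% in MRV than in NC. The log2 difference of MAPK14 was -0.37 in MRV minus NC (limma adjusted p = 0.904, unadjusted p = 0.0134). ITPR3, a calcium release channel of the endoplasmic reticulum, had a log2 difference of -0.21 in MRV minus MR, and NCF1, a subunit of the NADPH oxidase, of 0.22.

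The corticosteroid list had a median of -0.22 in MR minus NC, with 5 of 7 genes lower, and of -0.056 in MRV minus MR. The first median was -0.031 without NC animal 2. FKBP5, a glucocorticoid-induced chaperone of the steroid receptors, read 589.4 and 957 in MRV, 531.3 and 947.5 in MR, and 1045.1 and 1094.8 in NC. SGK1, a kinase induced by aldosterone and glucocorticoids, read 645.2 and 370.6 in MRV, 502.3 and 685.8 in MR, and 1101.3 and 624.3 in NC. For FKBP5 all 4 lesioned animals lay below both NC animals, as for AGTR1, whereas MR and NC overlapped for SGK1. FKBP4 and HSD3B1 had log2 differences of -0.098 and 0.16 in MR minus NC.

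In the kallikrein and kinin list, which covers the peptides that converting enzyme also degrades, 2 of 5 genes were higher in MR minus NC (median -0.073) and 4 of 5 in MRV minus MR (median 0.11). KLK1, tissue kallikrein, which releases kinins, read 71.4 and 85.4 in MRV, 60.2 and 55.9 in MR, and 58.5 and 65.8 in NC, close to the testing limit. Its MRV values exceeded all others, as against NC did those of 15% of tested probe sets, with a log2 difference of 0.35 in MRV minus MR (limma adjusted p = 0.654, unadjusted p = 0.0322). The carboxypeptidase genes CPD, CPN1 and CPM had log2 differences of 0.059, 0.11 and 0.17 in the same comparison.

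Genes that angiotensin II is known to induce through its type 1 receptor had a median of 0.18 in MR minus NC, with 10 of 15 higher, and of -0.22 in MRV minus MR, with 8 of 15 lower. Among all tested genes 52.6% were higher in MR minus NC and 57.6% lower in MRV minus MR. The first median of the list was -0.076 without NC animal 2 and -0.034 without MR animal 2, and the second was -0.45 without MR animal 1 and -0.075 when the probe sets of each gene were averaged. The natriuretic peptide gene NPPB read 4075.7 and 4644.3 in MRV, 8080.7 and 8252.8 in MR, and 4509.6 and 4095.1 in NC. RCAN1, the calcineurin regulator, read 520.9 and 564.9 in MRV, 941.2 and 1334.6 in MR, and 673.9 and 669.4 in NC. In both genes the MR animals stood above all others, a pattern that none of AGT, AGTR1 and ACE showed.

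SPP1, osteopontin, a matrix protein and cytokine, read 32.2 and 63 in MRV, 247.9 and 138.1 in MR, and 199.7 and 112.5 in NC. Its log2 difference was -1.71 in MRV minus MR (SE 0.39, limma adjusted p = 0.502), with the MRV animals below all 4 others. The MRV readings were dim: 32.2 lay under, and 63 close to, the limit of 61.4 that average intensities had to reach for testing. Of all tested probe sets, 23.6% were lower in MRV than in MR without overlap, and 18.1% than in NC. The early response transcription factor gene EGR1 read 517.4 and 481.7 in MRV, 407.2 and 604.8 in MR, and 786.8 and 803.7 in NC. As for AGTR1, both NC animals stood above the 4 lesioned ones, with log2 differences of -0.66 in MR minus NC, 0.0075 in MRV minus MR and -0.65 in MRV minus NC. The other 2 EGR1 probe sets had -1.02 and -1.07 in MR minus NC, 0.45 and 0.13 in MRV minus MR, and -0.58 and -0.94 in MRV minus NC.

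**Figure D4:**
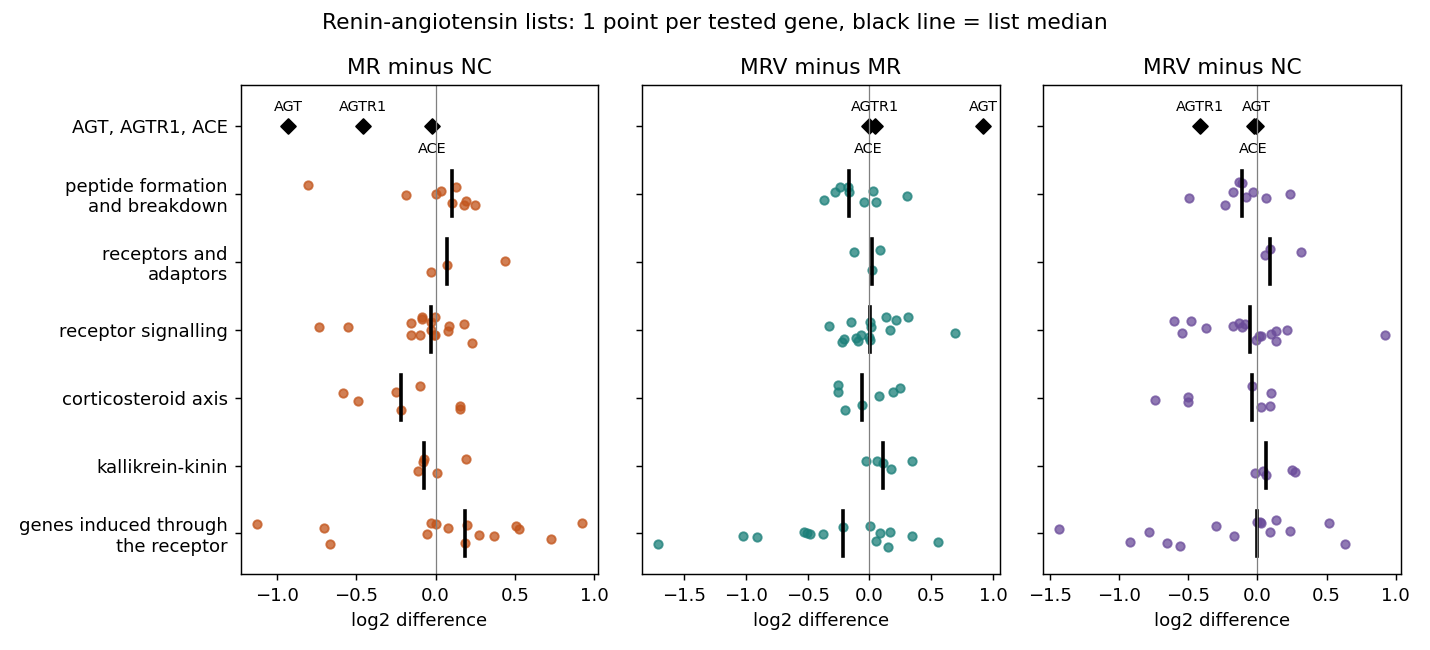
Log2 differences (horizontal axes, log2(intensity + 16) scale) in the 3 comparisons for AGT, AGTR1 and ACE (diamonds, top row) and for the tested genes of the 6 lists (1 point per gene, black line for the list median; horizontal scales differ between panels). List medians stay between -0.22 and 0.18, and the widest scatter is among genes induced through the receptor, with SPP1, which was dim in MRV, at -1.71 in MRV minus MR.

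The genes whose array profile was most like that of each of the 3 were sought among about 1650 genes that varied by at least 0.5 on the log2 scale, by Pearson's r over the 6 arrays. These are descriptions over few arrays, since some of so many genes will match any profile. For AGT they were CXCL9, a chemokine gene (r = 0.96), FAM216B (r = 0.95), CCK, the precursor of the peptide hormone cholecystokinin (r = 0.94), and LOC100152327 (r = 0.92). Without MR animal 2 and NC animal 1, the arrays farthest from the AGT median, these became 0.91, 0.80, 0.94 and 0.90. CCK read 4605 and 5371.3 in MRV, 1477.8 and 133.5 in MR, and 6339 and 911.6 in NC. CXCL9 read 126.8 and 133.7 in MRV, 93.6 and 61.4 in MR, and 159.8 and 72.7 in NC. AGT, CCK and CXCL9 ranked the 6 animals in the same order (Spearman's rho = 1).

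AGTR1 was most like EGR1 (r = 0.98), PDLIM4, a gene of a PDZ and LIM domain protein of the actin cytoskeleton (r = 0.97), TIAM2, an exchange factor for Rac (r = 0.95), and PDLIM3, a Z-disc relative of PDLIM4 (r = 0.95). The other EGR1 probe sets gave r = 0.93 and 0.98, and the other PDLIM4 probe set r = 0.59. Without MR animal 1 and NC animal 1 the 4 values were 0.96, 0.93, 0.86 and 0.97. PDLIM3 read 656 and 587.1 in MRV, 574.6 and 862 in MR, and 909.8 and 944.9 in NC, so its NC animals also exceeded the other 4.

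ACE, with its small range, was most like NDUFV3, a subunit of mitochondrial complex I (r = 0.96), GGACT (r = 0.91), CRIM1 (r = 0.86) and TMOD3, which caps actin filaments (r = 0.85). Another GGACT probe set gave r = 0.49, and without MR animal 1 and NC animal 2 the r of GGACT was 0.63. Among AGT, AGTR1 and ACE themselves, r was 0.094 for AGT with AGTR1, -0.10 for AGT with ACE and -0.34 for AGTR1 with ACE.

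**Figure D5:**
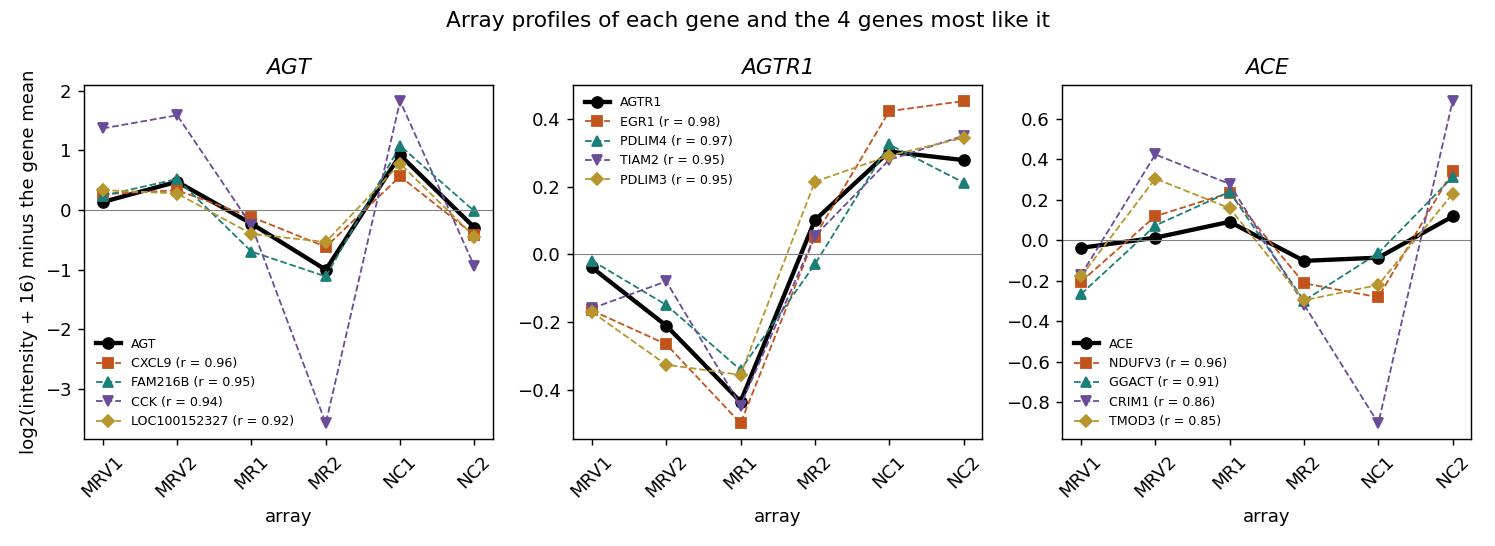
log2(intensity + 16) minus the mean of the gene (vertical axes, scales differ) on the arrays MRV1, MRV2, MR1, MR2, NC1 and NC2 for AGT, AGTR1 and ACE (black) and the 4 genes with the highest Pearson's r to each (dashed). AGT and CCK are lowest in MR animal 2 and highest in NC animal 1, and AGTR1 and EGR1 are lowest in MR animal 1 and highest in the NC animals.

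Markers of the cell types that an atrial sample can hold were summed per array as intensity. The endothelial sum (12 of 14 markers on the array) ran from 4032.6 to 4599.1 in MRV, 4389.7 to 4806.1 in MR and 4446.5 to 4616.7 in NC. The smooth muscle and pericyte sum (7 of 12 markers) ran from 5466 to 5961.9 in MRV, 6446.4 to 6590.2 in MR and 6039.2 to 7784.3 in NC, and so was lower in MRV than in both MR and NC without overlap, while MR and NC overlapped. In MRV minus MR 5 of the 7 markers were lower and 2 higher (median log2 difference -0.35). MCAM had -0.82, CNN1 -0.73 and TAGLN -0.41, but ACTA2, the brightest marker, had 0.017 and RGS5 0.014. In MRV minus NC 6 of the 7 were lower (median -0.30). Lower values in MRV without overlap held for 4 of the 7 against MR and 3 against NC, beside 23.6% and 18.1% of all tested probe sets. AGTR1 was also lower in MRV than in NC without overlap, but overlapped between MRV and MR and did not overlap between MR and NC. The fibroblast sum (10 of 13) ran from 8797 to 11591.3 in MRV, 9944.9 to 11396.4 in MR and 9953.9 to 13694.8 in NC. These lists cover the cells in which ACE and AGTR1 are typically found.

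The adipocyte sum (10 of 13 markers) ran from 4477.9 to 4510.7 in MRV, 5372.1 to 6035 in MR and 5851.9 to 7194 in NC, and was lower in MRV than in MR and in NC without overlap. In MRV minus MR, where AGT was higher in MRV, 4 of the 8 tested adipocyte markers were higher and 4 lower (median log2 difference -0.013), and the summed difference came mostly from the bright FABP4 and LPL, each of which overlapped between the groups. In MR minus NC, where AGT had -0.93, 7 of the 8 markers were lower (median -0.42, against 0.0076 over all tested genes). In MRV minus NC, where AGT had -0.0084, 7 of the 8 were lower as well (median -0.68, against -0.023). The Schwann cell and neuron sum (6 of 14) ran from 1211.2 to 1904 in MRV, 2885.2 to 3203.3 in MR and 2130.6 to 3079.4 in NC, lower in MRV than in MR and in NC without overlap. Its brightest marker, UCHL1, read 633.4 and 1186.4 in MRV, 2276.8 and 1997.5 in MR, and 1121.8 and 2383.7 in NC, with overlap of MRV and NC. Of the 5 tested markers, 5 were lower in MRV minus MR and 4 in MRV minus NC. The atrial muscle sum (7 of 12) ran from 64255.3 to 65487.6 in MRV, 59974.3 to 65175.4 in MR and 62545.5 to 64474 in NC. The macrophage sum (7 of 11) overlapped between all groups, at 509.3 to 976 in MRV, 526.7 to 895.1 in MR and 620.8 to 1033.6 in NC. The 3 mesothelial markers on the array lay below the testing limit, as did 2 of the 3 mast cell markers, and no marker was listed at 0. The part of these shifts in the AGT and AGTR1 differences was not tested.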

How the data were processed

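The deposited values are linear intensities of probe sets, made by the authors from porcine Affymetrix arrays. Both MAS5 and RMA appear in the submitters' processing notes, without saying which one gave these values. That the intensities were already normalized between arrays was read from the deposited values, whose array medians were alike. No batch is recorded in the labels, and the number of arrays limits the precision.

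Groups came from the sample titles. Tests omitted 124 control probe sets and those whose average intensity fell under the 40th percentile (61.4). The annotation gave 1 symbol for 10069 of 23999 probe sets, several for 198 and none for 13732; genes were named from single symbols only, and 9961 of them were found by gene ID in the RefSeq table of Sscrofa11.1. The array annotation names no genome build, so no coordinates are given. Group means of log2(intensity + 16) were fitted on all arrays by limma 3.58.1 (lmFit, eBayes; R 4.3.3), with Benjamini-Hochberg adjustment over 14400 probe sets. The script was tested on simulated data. In lists each gene stands by its brightest probe set.

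The members and lists were chosen with earlier results of these data known. Named are AGT, AGTR1, ACE and further central genes of the axis, some of which are not reported here, up to 4 genes per list by smallest unadjusted p in MR minus NC or MRV minus MR, and the 4 genes most like each member. Alternatives were other pseudocounts (1 and 64), filters, normalization, prior, covariates, a replicate block and leaving out each array. Replicate numbers were shared by the groups, but no label says that they pair animals.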

Additional observations from a re-analysis of the deposited data

How the results depend on the processing

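None of the 141 alternative fits of AGT, AGTR1 and ACE brought a difference past the threshold, and 127 kept the direction. AGT in MR minus NC and in MRV minus MR, and AGTR1 in MR minus NC and in MRV minus NC, kept theirs in all 16 alternatives each. Several alternatives could not turn a direction, since the filters, the intensity trend, fitting only the groups compared and the replicate block leave the estimate unchanged. Where the arrays of the groups did not overlap, leaving out 1 array cannot turn it either. The counts of kept directions are therefore no test of these differences. The AGTR1 difference in MRV minus MR turned to -0.29 with the actin ratio as a covariate and ran from -0.23 to 0.31 with single arrays left out. AGT in MRV minus NC was 0.029 after quantile normalization, 0.67 with the actin ratio, 0.48 with the 28S control (added after the data had been seen) and from -0.62 to 0.60 with single arrays left out. ACE ran from -0.12 to 0.081 in MR minus NC, from -0.10 to 0.089 in MRV minus MR and from -0.13 to 0.074 in MRV minus NC with single arrays left out, and was 0.015 in MRV minus MR with the actin ratio. The cause of these turns was not tested. With a filter at the 60th percentile (an intensity of 136) ACE was not tested. Over all probe sets, the count called in MR minus NC was 0 with a pseudocount of 1, no filter, quantile normalization, an intensity trend, only the groups compared, the replicate block, either covariate, and from 0 to 0 with single arrays left out. In MRV minus MR it was 2 with the replicate block and 1 with the 28S control. The deviations of same-numbered animals correlated at 0.019 (MRV and MR), 0.20 (MRV and NC) and 0.34 (MR and NC). These values cannot decide whether the numbers pair animals or share an order of processing. The block changed no call of the 3 genes, but the SE of AGT was 0.35 with it and 0.45 without it. List medians moved by less than the spread between replicates in 132 of 162 alternatives, and 0 list genes were called in any. With 2 animals per group, AGT log2 differences of up to -1.54 (MR minus NC) and 2.05 (MRV minus MR) among these fits were still not past the threshold.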

Other observations

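CCK, which ranked the animals as AGT did, had the widest range among the 12 genes named for their likeness, from 133.5 in MR animal 2 to 6339 in NC animal 1.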
